A study of Mus musculus with 6 samples.

Results

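The core clock loop genes are the 9 genes Arntl, Clock, Npas2, Per1, Per2, Per3, Cry1, Cry2 and Rora, picked by gene symbol from the 22609 genes that the count tables of this mouse liver series list. All 9 were present and all 9 passed the filter on low counts, Npas2 through the wild type group alone. RNA was sequenced in 3 liver libraries of IGFBP7 knock-out mice and 3 liver libraries of wild type mice, all adult C57BL/6. Each library is called a liver below. The knock-out allele, Igfbp-7-/-, came from a Cre-loxP strategy in a pure C57BL/6 background, and the labels name neither the promoter that drove Cre nor any agent given to either genotype. Sex, age, feeding state and hour of collection are not given in the labels, and nothing there says that the replicates are separate animals, so p-values measure the spread between these samples, which may be technical.

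The circadian clock is a loop of transcription that runs in nearly every cell, the hepatocyte included. ARNTL, also called BMAL1, pairs with CLOCK or with its relative NPAS2 and switches on genes that carry an E-box, among them the Per and Cry genes. PER and CRY proteins then return to the nucleus and repress that pair, while RORA activates Arntl through ROR elements that the REV-ERB receptors, products of Nr1d1 and Nr1d2, occupy to repress it. In mouse liver the Arntl and Npas2 transcripts are known to peak at a nearly opposite phase to those of the Per genes. The levels of these genes therefore depend strongly on the hour at which a liver is taken.

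Promoter sequences are shown for the 4 members in which one of the loop's known elements was found close to a start site, since these elements tie the members to one another. They come from the RefSeq table of build GRCm38.p6, each 300 bases running from 250 before to 50 after an annotated start, written 5′ to 3′ on the strand of the gene, with the element in capitals. Capitals mark the ROR element AGTAGGTNA in Arntl (chr7:113207261-113207560, plus strand), the E-box CACGTG in Per1 (chr11:69098699-69098998, plus strand) and Cry1 (chr10:85185005-85185304, minus strand), and the D-box TTATGTAA, bound by DBP, TEF and HLF, in Per3 (chr4:151044616-151044915, minus strand).
Arntl: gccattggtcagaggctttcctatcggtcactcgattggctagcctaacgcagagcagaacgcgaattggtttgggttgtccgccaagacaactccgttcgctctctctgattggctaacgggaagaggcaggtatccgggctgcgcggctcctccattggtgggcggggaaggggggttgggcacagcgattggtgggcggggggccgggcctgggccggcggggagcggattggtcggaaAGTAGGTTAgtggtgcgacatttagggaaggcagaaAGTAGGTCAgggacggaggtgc
Per1: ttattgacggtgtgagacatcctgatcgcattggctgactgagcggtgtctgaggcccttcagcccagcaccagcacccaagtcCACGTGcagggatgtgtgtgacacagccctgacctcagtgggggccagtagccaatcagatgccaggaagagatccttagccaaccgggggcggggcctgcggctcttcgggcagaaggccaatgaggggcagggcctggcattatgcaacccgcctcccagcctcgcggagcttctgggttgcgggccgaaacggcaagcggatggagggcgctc
Per3: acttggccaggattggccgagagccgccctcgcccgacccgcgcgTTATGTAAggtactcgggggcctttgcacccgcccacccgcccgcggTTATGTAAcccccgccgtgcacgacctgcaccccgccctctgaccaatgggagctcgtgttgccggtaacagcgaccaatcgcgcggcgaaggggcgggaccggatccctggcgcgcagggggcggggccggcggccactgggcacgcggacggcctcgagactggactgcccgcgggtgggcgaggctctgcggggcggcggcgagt
Cry1: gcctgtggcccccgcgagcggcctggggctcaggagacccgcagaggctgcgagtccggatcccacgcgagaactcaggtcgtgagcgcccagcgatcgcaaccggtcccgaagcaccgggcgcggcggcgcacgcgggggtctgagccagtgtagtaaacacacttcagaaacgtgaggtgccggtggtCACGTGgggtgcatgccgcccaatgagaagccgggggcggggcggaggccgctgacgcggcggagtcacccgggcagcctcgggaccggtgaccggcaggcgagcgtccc

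Both strands were searched, with the motifs chosen after these windows had been read. The Arntl window held 2 ROR elements, AGTAGGTTA and AGTAGGTCA, starting at -8 and 28 relative to the annotated start, a motif present in 0.591% of the 32851 windows of all genes. A longer form with AA directly before these letters, which was searched first and shortened with its matches known, is met at both places and is in 0.0609% of all windows. The other Arntl window overlaps this one and held the element once, at 38. Per3 held 2 D-boxes at -205 and -158, and 0.938% of all windows held this motif. Per1 held an E-box at -166 and Cry1 one at -60, against 7.15% of all windows. The table held 12 windows for 8 of the 9 members, and Per2 had none. None of these 3 motifs was in the windows of Clock, Npas2, Cry2 or Rora, nor in the other Per1 window. The shorter half-site AGGTCA, present in 16.3% of all windows, lay in 1 window each of Arntl, where it overlaps a ROR element, Clock and Per1. A match describes letters and not a bound site.

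Libraries held 16712568 to 22419411 gene counts. Igfbp7 had 5, 2 and 9 counts in the knock-out livers, against 1438, 1705 and 1055 in the wild type livers, which matches the labels. Hepatocyte markers were high in all 6 livers, with Alb, the albumin gene, at 65380 to 85470 CPM (counts scaled to library size, which was adjusted by TMM) in knock-out and 61050 to 78720 CPM in wild type livers. Kupffer cell markers were lower in the knock-out livers in 10 of 10 genes, at a summed 353 to 556 CPM against 673 to 758 CPM in wild type livers, with 758 CPM in wild type replicate 1. Of the 12522 tested genes, 6229 had a negative log2 fold change. By edgeR 0 of the 10 Kupffer cell markers passed over all genes, where 0.216% of tested genes did. By DESeq2 8 did, all lower, where it called 1.58% of its tested genes lower. None of the 10 was at 0. Markers of cholangiocytes summed to 47.7 to 59.4 CPM in knock-out and 76.0 to 104 CPM in wild type livers, nearly all of it Spp1, and the other 5 overlapped at 4.81 to 8.48 CPM in knock-out and 5.75 to 9.52 CPM in wild type livers. Those of lymphocytes summed to 2.11 to 2.73 CPM in knock-out and 3.93 to 4.73 CPM in wild type livers. Of these 7 scarce genes 4 were tested, and edgeR and DESeq2 called 0. Endothelial markers overlapped, at 299 to 376 CPM in knock-out and 336 to 356 CPM in wild type livers. Stellate cell markers overlapped too, at 227 to 336 CPM in knock-out and 266 to 322 CPM in wild type livers. The part of these cells in the results was not tested, and in bulk tissue fewer cells of a type and less RNA per cell cannot be told apart.

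Wild type replicate 1 stood apart from the other wild type livers in the clock genes. Its log2 CPM lay above the mean of wild type replicates 2 and 3 by 2.73 for Arntl and 2.62 for Npas2, and below it at differences of -2.03 for Per1, -2.03 for Per3 and -0.91 for Per2. The median size of this difference over all 12522 tested genes was 0.15. A difference as large as that of Arntl was found in 0.0719% of the tested genes, and one as large as that of Per3 in 0.24%. Clock at 0.47, Cry1 at 0.61, Cry2 at -0.32 and Rora at 0.23 differed less. Member by member, log2 fold changes are therefore also given without this library, a choice made with these values in view. Against the other livers of its genotype, wild type replicate 1 had 4 members differing by more than 1, where 1.69% of tested genes did. Knock-out replicate 1 departed too, with 3 such members, where 1.95% of tested genes did.

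In the comparison of genotypes, the transcripts of the activator arm, Arntl, Clock and Npas2, were on average lower in the knock-out livers and those of the 3 Per genes higher, but no member passed the test over all genes. The smallest adjusted p of a member was 0.124 for Clock (edgeR quasi-likelihood test, Benjamini-Hochberg over 12522 genes). By edgeR 0 of 9 members were called, where 0.216% of all tested genes were. At an unadjusted p under 0.05, 3 members were higher (Per2, Per3 and Cry2), where 8.1% of all tested genes were, and 3 were lower (Arntl, Clock and Npas2), where 7.35% were. Npas2 passed the filter on low counts through the wild type livers alone. Its place among the lower members is thus partly built into the edgeR counts given here. DESeq2 called 2 of 9, Clock and Npas2, both lower, where 1.58% of the genes it tested were. Without wild type replicate 1 edgeR again called 0, where 0.0394% of tested genes were called, with 4 at an unadjusted p under 0.05 (Clock and Npas2 lower, Per1 and Per3 higher) against 10.9% of all tested genes, and DESeq2 called 0 of the 8 members it tested, Npas2 not among them, against 1.4%. The median log2 fold change of the members was 0.26, against 0.001 for all tested genes, and their median size without sign was 0.86 against 0.15. Without wild type replicate 1 the median log2 fold change was 0.374, against 0.004 for all tested genes. The size without sign was then smaller for every member but Cry1 and Rora, and its median was not computed.

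Clock encodes the histone-acetylating partner of ARNTL and was the member whose genotypes separated with the least spread. Its level was 51.5, 42.0 and 41.1 CPM in knock-out replicates 1 to 3, against 84.4, 61.3 and 60.3 CPM in wild type replicates 1 to 3. All 3 knock-out values lay below all 3 wild type values, with wild type replicate 1 the highest. The log2 fold change was -0.61 ± 0.15 (SE; edgeR adjusted p = 0.124, DESeq2 adjusted p = 0.0149). Without wild type replicate 1 the groups still did not overlap and the log2 fold change was -0.44 ± 0.13 (SE; edgeR adjusted p = 0.287, DESeq2 adjusted p = 0.182).

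Clock lies on chromosome 5, as Igfbp7 does, with 16 protein-coding genes between them in the RefSeq table of GRCm38.p6. Of these 10 were tested. Their log2 fold changes ran from -0.05 to 0.29 with a median of 0.15. Above 0 were 9, where 6293 of all 12522 tested genes were, and 1 was below. Neither edgeR nor DESeq2 called any (0 each), and 0 reached an unadjusted p under 0.05. The lowest p values in this stretch were those of Aasdh, at a log2 fold change of 0.29 ± 0.18 (SE), and Polr2b, a subunit of RNA polymerase II, at 0.14 ± 0.09 (SE), neither past the threshold.

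Npas2, which can take the place of CLOCK beside ARNTL, was the scarcest member. It had 8, 3 and 2 counts in knock-out replicates 1 to 3, or 0.379, 0.164 and 0.0982 CPM, against 75, 13 and 9 counts in wild type replicates 1 to 3, or 3.99, 0.608 and 0.520 CPM. All 3 knock-out values lay below the wild type values, and wild type replicate 1 held most of the wild type reads. Only 2 of the 6 libraries had at least 10 counts. Npas2 passed the filter on low counts through the wild type livers alone. A lower knock-out level is thus partly built into its being tested by edgeR. With no filter the log2 fold change was -2.93 (edgeR adjusted p = 0.149). The log2 fold change was -2.94 ± 0.94 (SE; edgeR adjusted p = 0.195, DESeq2 adjusted p = 0.014), and -1.36 ± 0.57 (SE; edgeR adjusted p = 0.438) without wild type replicate 1. Scaled for library size, the 13 knock-out counts came to 0.382 of the level in wild type replicates 2 and 3 with 22 counts (95% exact interval 0.177 to 0.794, counting error only), and to 0.129 of the level in all 3 wild type livers (95% exact interval 0.0663 to 0.231, counting error only).

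Arntl, the obligate partner of the activator pair, showed the same outlying library but no separation of the genotypes. It stood at 2.75, 1.91 and 2.21 CPM in knock-out livers, against 17.6, 2.85 and 2.31 CPM in wild type livers. Wild type replicate 1 alone was high, and the other wild type values overlapped those of the knock-out livers. The log2 fold change of -1.72 ± 0.72 (SE; edgeR adjusted p = 0.304) was -0.17 ± 0.26 (SE; edgeR adjusted p = 0.875) without that library. The 2 ROR elements shown in capitals lie in this promoter, and the transcripts of the receptors known to act on such elements are given with the other clock genes below.

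**Figure D1:**
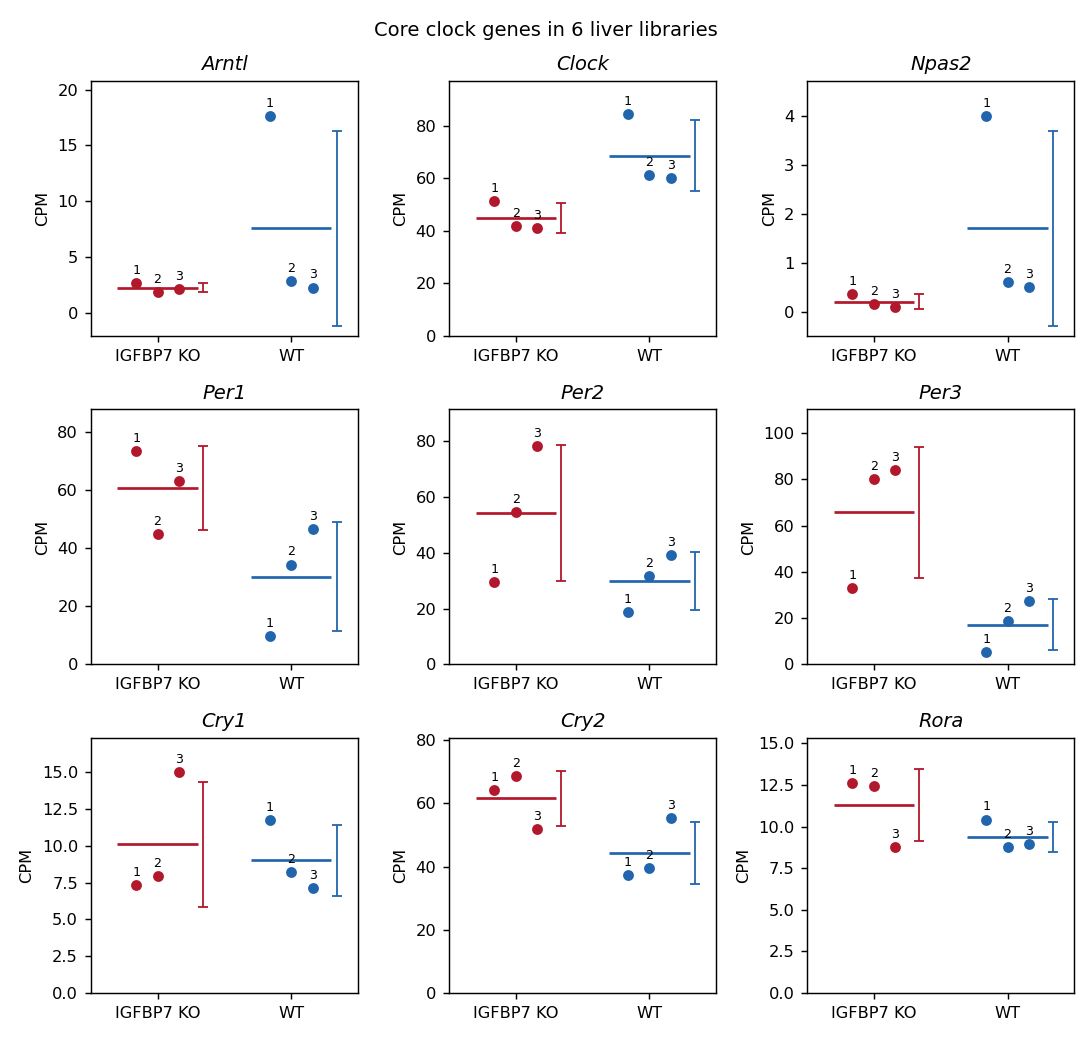
Level of each core clock gene in CPM (linear axes, one panel per gene) in the 3 IGFBP7 knock-out (KO, red) and 3 wild type (WT, blue) livers; numbers are replicates, horizontal lines are means and bars beside them are ± SD (n = 3). Clock, Npas2 and Per3 have groups that do not overlap, and WT replicate 1 is the highest point for Arntl at 17.6 CPM and the lowest for Per3 at 5.48 CPM.

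Per3, the Per gene that is dispensable for rhythm in mice, had the largest positive difference between group means of the 9 members, which did not pass the test. It was at 33.2, 80.1 and 84.0 CPM in knock-out livers, against 5.48, 18.7 and 27.4 CPM in wild type livers. Every knock-out value was above every wild type value, with knock-out replicate 1 close to the highest wild type liver. The means of 65.7 ± 28.3 and 17.2 ± 11.02 CPM (SD, n = 3 each) differed 3.83-fold, a log2 fold change of 1.94 ± 0.52 (SE; edgeR adjusted p = 0.144), and a change of this size or more was seen in 0.2% of all tested genes. Without wild type replicate 1 the difference was 2.86-fold, a log2 fold change of 1.52 ± 0.38 (SE; edgeR adjusted p = 0.241), and the groups remained apart.

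Per1, a light- and hormone-responsive repressor of the loop, was at 73.6, 45.0 and 63.3 CPM in knock-out livers and at 9.73, 34.4 and 46.5 CPM in wild type livers. The groups overlapped where knock-out replicate 2 met wild type replicate 3. The log2 fold change was 1.01 ± 0.45 (SE; edgeR adjusted p = 0.334) and 0.59 ± 0.22 (SE; edgeR adjusted p = 0.391) without wild type replicate 1.

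Per2, the repressor on which rhythm in mice depends most among the Per genes, was at 29.5, 54.5 and 78.2 CPM in knock-out livers and at 18.6, 31.7 and 39.0 CPM in wild type livers. Knock-out replicate 1 lay within the wild type range and the other knock-out livers above it. The log2 fold change was 0.86 ± 0.35 (SE; edgeR adjusted p = 0.293) and 0.61 ± 0.34 (SE; edgeR adjusted p = 0.591) without wild type replicate 1. Leaving out knock-out replicate 1 gave a log2 fold change of 1.157, and leaving out knock-out replicate 3 gave 0.497. The Per genes did not follow one order among the knock-out livers: replicate 1 was the highest of the 3 for Per1 and the lowest for Per2 and Per3.

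Ratios of counts within a library do not depend on how libraries are scaled. Per3 counts over Arntl counts were 12.1, 41.9 and 38.0 in knock-out livers, against 0.311, 6.54 and 11.9 in wild type livers. Per1 counts over Arntl counts were 26.8, 23.6 and 28.6, against 0.553, 12.1 and 20.2, and Per2 counts over Arntl counts 10.7, 28.5 and 35.4, against 1.06, 11.1 and 16.9, in the same order of groups. The genotypes did not overlap for Per1 and for Per3, where knock-out replicate 1 was barely above wild type replicate 3, and overlapped for Per2. By its own CPM Per1 overlapped. How often ratios of other gene pairs separate was not tested, and 20.7% of single tested genes had groups apart in CPM. Arntl, the divisor, held only 58, 35 and 45 counts in knock-out livers and 331, 61 and 40 in wild type livers. Wild type replicate 1 was the single liver in which Arntl had more counts than Per1 and Per3.

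**Figure D2:**
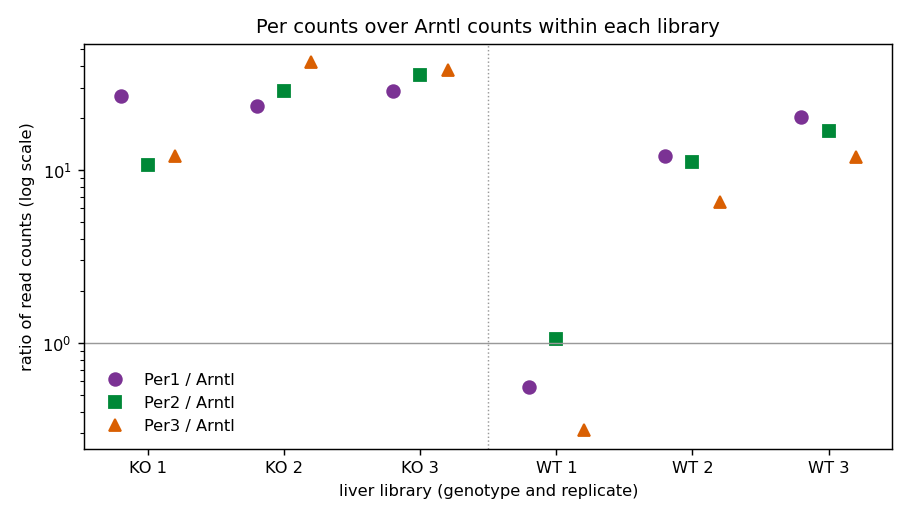
Read counts of Per1, Per2 and Per3 divided by the Arntl count of the same library (log axis) for the 3 IGFBP7 knock-out (KO) and 3 wild type (WT) livers; the grey line marks a ratio of 1. WT replicate 1 lies near or below the line, from 0.311 to 1.06, and the other 5 livers lie between 6.54 and 41.9.

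The cryptochromes, the strongest repressors of the activator pair, differed less. Cry1 was at 7.34, 7.97 and 15.0 CPM in knock-out livers and 11.8, 8.23 and 7.10 CPM in wild type livers. Knock-out replicate 3 was high, the groups overlapped, and the log2 fold change of 0.16 ± 0.30 (SE; edgeR adjusted p = 0.847) was -0.24 ± 0.22 (SE; edgeR adjusted p = 0.667) without that liver and 0.40 ± 0.31 (SE; edgeR adjusted p = 0.726) without wild type replicate 1. Cry2 was at 64.4, 68.6 and 51.9 CPM in knock-out livers and 37.5, 39.7 and 55.5 CPM in wild type livers. Knock-out replicate 3 lay below wild type replicate 3, and the log2 fold change was 0.48 ± 0.17 (SE; edgeR adjusted p = 0.226), or 0.37 ± 0.18 (SE; edgeR adjusted p = 0.503) without wild type replicate 1. The ratio of Cry2 to Cry1 counts was 8.77, 8.60 and 3.45 in knock-out livers and 3.19, 4.82 and 7.81 in wild type livers, with no separation.

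Rora, the nuclear receptor that activates Arntl, was the steadiest member across libraries. It was at 12.6, 12.4 and 8.79 CPM in knock-out livers and 10.4, 8.79 and 8.95 CPM in wild type livers. The groups overlapped, and the log2 fold change was 0.26 ± 0.17 (SE; edgeR adjusted p = 0.494), or 0.35 ± 0.19 (SE; edgeR adjusted p = 0.59) without wild type replicate 1. Over all 6 libraries its log2 CPM spanned 0.51, the narrowest range of the 9, against 4.35 for Npas2, 3.91 for Per3 and 3.14 for Arntl.

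**Figure D3:**
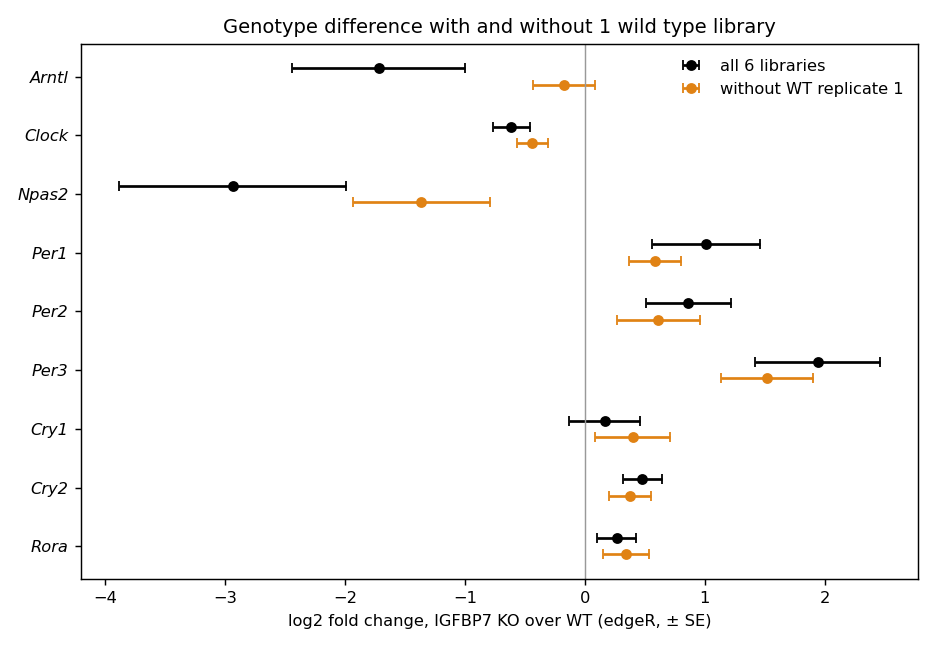
Log2 fold change of each core clock gene, IGFBP7 knock-out (KO) over wild type (WT), by edgeR with bars of ± SE, in all 6 libraries (black) and without WT replicate 1 (orange). The estimate for Arntl moves to -0.17 from -1.72 and that for Npas2 to -1.36 from -2.94 when this library is left out, while Clock and Per3 move to -0.44 and 1.52.

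In total, 3 of 9 members had groups that did not overlap, Per3 above and Clock and Npas2 below, where 20.7% of all tested genes had such groups. The place of Npas2 among them is partly built in, since it passed the filter through the wild type livers alone. Without wild type replicate 1 the same 3 members were apart, where 27.8% of all tested genes were. The members also varied within a genotype. The median range of log2 CPM was 0.71 over the members in knock-out and 1.06 in wild type livers, against 0.33 and 0.27 over all tested genes. In the knock-out livers the widest ranges were 1.40 for Per2, 1.34 for Per3, 1.26 for Npas2 and 1.02 for Cry1, in wild type livers 2.88 for Arntl, 2.72 for Npas2, 2.30 for Per3 and 2.25 for Per1.

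Levels were compared between members only per length, as CPM per kilobase of merged exons in the GENCODE M21 annotation. In knock-out livers the mean level was highest for Per1 at 10.8, followed by Cry2 at 9.75, Per2 at 9.23, Per3 at 6.84, Clock at 3.27, Cry1 at 3.03, Rora at 0.863, Arntl at 0.304 and Npas2 at 0.0446 CPM per kilobase. Neighbours from Per1 down to Cry1 overlapped in their ranges over the 3 livers, and each step from Cry1 down to Npas2 was apart. In wild type livers the order was Cry2 at 6.99, Per1 at 5.37, Per2 at 5.08, Clock at 5.0, Cry1 at 2.70, Per3 at 1.79, Arntl at 1.01, Rora at 0.718 and Npas2 at 0.356 CPM per kilobase. There only Clock and Cry1 were neighbours with ranges apart. Wild type replicate 1 sets the place of Arntl: over wild type replicates 2 and 3 the means were 0.343 for Arntl, below the 0.679 of Rora, 0.118 for Npas2 and 2.40 for Per3, just above the 2.295 of Cry1, all in CPM per kilobase. Merged exons include every annotated isoform, 13.7 kilobases for Clock and 3.34 for Cry1, so the level of a gene that uses shorter isoforms is understated.

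Other genes of the clock were read by lists, chosen with earlier results of these data known, so their counts describe and do not test. Of the listed nuclear receptors that share ROR elements with RORA, Rorb had no count in any library and 2 others, Nr1d1 and Nr1d2, were tested. By edgeR and by DESeq2 0 were called, and 1, Nr1d2, was higher at an unadjusted p under 0.05, where 8.1% of all tested genes were. Nr1d2, which encodes REV-ERB beta, was at 138, 138 and 122 CPM in knock-out livers and 61.8, 97.1 and 119.8 CPM in wild type livers (log2 fold change 0.52 ± 0.21, SE; 0.29 without wild type replicate 1). Nr1d1, which encodes REV-ERB alpha and is given here after its values were seen, was at 262, 151 and 62.1 CPM in knock-out livers and 97.5, 139 and 168 CPM in wild type livers, the wider range being that of the knock-out livers.

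The E-box repressors were higher in the knock-out livers in all 3 genes at an unadjusted p under 0.05, where 8.1% of all tested genes were. Without wild type replicate 1 the same held for all 3, and for 773 of the 12685 genes then tested. Over all genes edgeR called 0 of the E-box repressors and DESeq2 1, Bhlhe40, where it called 1.96% of its tested genes higher. In all 3 the knock-out values lay above the wild type values, which held for 10.7% of all tested genes. Gm129, also called Ciart, a repressor of the CLOCK and ARNTL pair, was at 24.2, 27.8 and 29.9 CPM in knock-out livers and 0.744, 5.28 and 10.2 CPM in wild type livers. Bhlhe40, also called Dec1, was at 219, 184 and 217 CPM in knock-out livers and 82.7, 103 and 158 CPM in wild type livers (log2 fold change 0.85 ± 0.21, SE; edgeR adjusted p = 0.126).

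Among the D-box factors 4 of 4 had a positive log2 fold change, as had 6293 of the 12522 tested genes. Dbp at 0.67 ± 0.51 (SE) and Nfil3 at 0.07 ± 0.26 (SE), given after their values were seen, had overlapping groups. By edgeR 0 were called and by DESeq2 1, Tef, where DESeq2 called 1.96% of its tested genes higher. Tef alone was higher at an unadjusted p under 0.05, where 8.1% of all tested genes were. Without wild type replicate 1 this held for 2 of the D-box factors, and for 773 of the 12685 genes then tested. Tef was at 301, 380 and 387 CPM in knock-out livers and 106, 222 and 275 CPM in wild type livers, with wild type replicate 1 the lowest. The log2 fold change of Tef was 0.82 ± 0.29 (SE; edgeR adjusted p = 0.236), or 0.52 without wild type replicate 1, and that of Hlf 0.38 ± 0.19 (SE; edgeR adjusted p = 0.395).

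**Figure D4:**
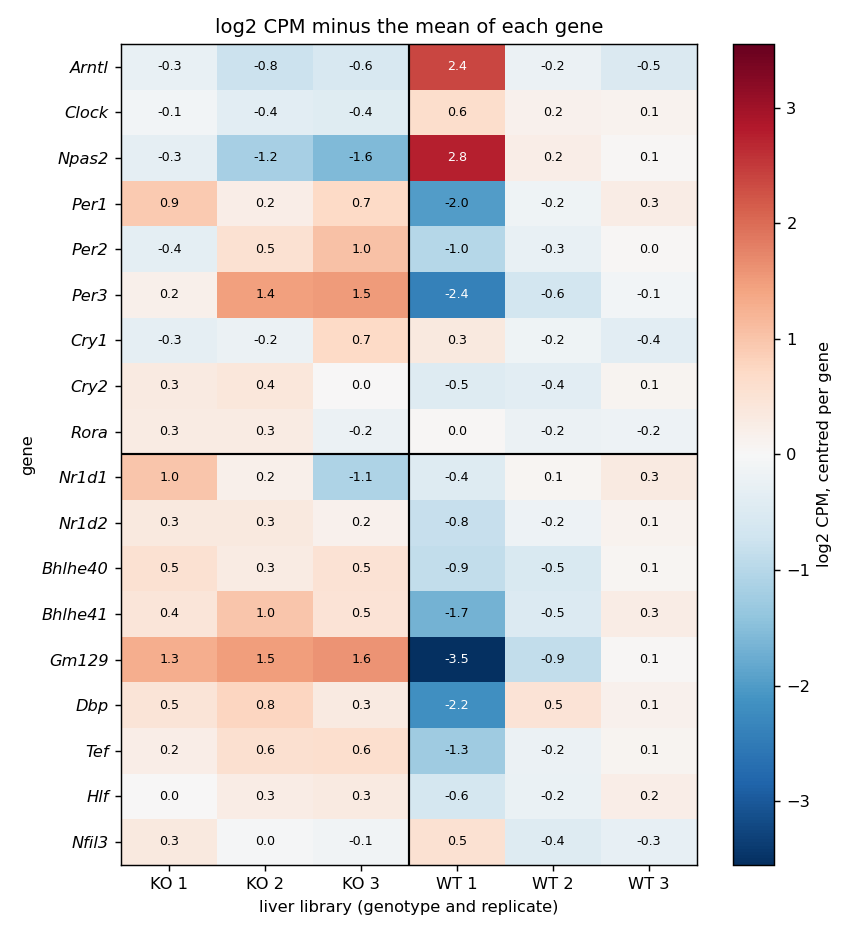
Log2 CPM minus the mean of each gene over the 6 libraries (colour and printed value) for the 9 core clock genes above the horizontal line and 9 other clock genes below it; columns are IGFBP7 knock-out (KO) and wild type (WT) livers. WT replicate 1 is high for Arntl and Npas2 and low for Per1, Per3, Gm129 and Dbp, and KO replicates 2 and 3 share the highest values of Per2 and Per3.

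Among the genes whose products modify clock proteins or act beside them, none passed the test. Of 13 kinases and phosphatases of the loop, 0 were called by edgeR or DESeq2. An unadjusted p under 0.05 was reached by 1, which was lower, where 7.35% of all tested genes were. The median log2 fold change was -0.001. Ppp1ca, a catalytic subunit of protein phosphatase 1, was at -0.28 ± 0.11 (SE), and Csnk1e, a casein kinase that phosphorylates PER, at 0.33 ± 0.21 (SE). Of 6 ubiquitin ligases and proteases, 0 were called by either tool, and an unadjusted p under 0.05 was reached by Usp2, higher, and Fbxw11, lower. At that threshold 8.1% of all tested genes were higher and 7.35% lower. Usp2, a rhythmic deubiquitinase, was at 84.2, 69.2 and 105 CPM in knock-out livers and 4.63, 41.6 and 47.5 CPM in wild type livers (log2 fold change 1.47, or 0.95 without wild type replicate 1), and Fbxw11, a ligase subunit that marks PER for breakdown, was at a log2 fold change of -0.23 ± 0.08 (SE). Of 13 cofactors, 0 were called by either tool and 1 was higher at an unadjusted p under 0.05, where 8.1% of all tested genes were. Sirt1, a deacetylase, was at 0.35 ± 0.13 (SE) and Hdac3, the deacetylase that REV-ERB recruits, at 0.19 ± 0.09 (SE).

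Rhythmic liver outputs held the 1 gene of these clock lists that passed the test. Por, which passes electrons to cytochrome P450 enzymes, rose in the knock-out livers, with 563, 526 and 617 CPM against 123, 223 and 208 CPM in wild type livers (log2 fold change 1.62 ± 0.21, SE; edgeR adjusted p = 0.0348). Without wild type replicate 1 its log2 fold change was 1.40 (edgeR adjusted p = 0.0184). In this list of 8 genes DESeq2 called 2, Por and Nampt, both higher, where it called 1.96% of its tested genes higher. By edgeR 5 genes were higher at an unadjusted p under 0.05, where 8.1% of all tested genes were. At that threshold 1 was lower, where 7.35% were. Usp2 is in this list too and is 1 of the 5 higher genes. Nampt, the rate-limiting enzyme of NAD salvage, was at 111, 136 and 178 CPM in knock-out livers and 52.0, 96.8 and 80.0 CPM in wild type livers (edgeR adjusted p = 0.138, DESeq2 adjusted p = 0.00471).

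Likeness to a member was measured as the root mean square distance between log2 CPM profiles over the 6 libraries, each centred on its own mean, among 10869 or 10870 genes with a mean of at least 1 CPM. Genes whose symbol is a predicted or clone name, Gm129 among them, were left out. Likeness was computed for the 7 members whose log2 CPM spanned at least 1, which leaves out Cry2 and Rora. Nearest to Npas2 were Pitx3 at 0.32, Elovl3, a fatty acid elongase, at 0.53 and Arntl itself at 0.56. Nearest to Arntl were Grk5 at 0.35, Cdkn1a, the cell cycle inhibitor p21, at 0.37 and Loxl4 at 0.43, all 3 highest in wild type replicate 1. Wee1, a kinase that restrains entry into mitosis, was the nearest gene to Per3 at 0.42 and the next to nearest to Per1 at 0.38, after Eif4ebp3 at 0.37. The stress-responsive chaperone Fkbp5 followed for Per3 at 0.461, after Xlr3a at 0.455, and Crym for Per1 at 0.395. Per2 was closest to Thrsp, a regulator of lipid synthesis, at 0.16, then Hcn3 at 0.21 and Ankrd12 at 0.22. Clock lay within 0.08 of Tlr2, Tars and Rnf144a, and Cry1 was closest to Abi3bp at 0.08, then Htra3 at 0.12 and Neu3 at 0.13. Genes with a narrow range lie close to many others, so distances are comparable only for one member.

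Some members share sequence with other annotated genes, and no source used here gives the strand setting of the counting. In GRCm38.p6 Per3 overlaps Uts2, with 0 or 1 count in each library, Cry2 overlaps D930015M05Rik, with 18 to 41 counts in knock-out and 14 to 23 in wild type livers, and Rora overlaps 9530091C08Rik, with 1 to 6 and 0 to 1 counts. A read in such an overlap may have gone to either gene or to neither.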

How the data were processed

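Each library has 1 deposited table of raw read counts by gene symbol. The tools in the submitters' processing notes are HTSeq, TopHat2 2.0.8b and CASAVA 1.8.2, the builds hg19 and mm9, without a role; annotation and strand setting were not given in the sources used here. The 5 rows that name no gene were left out; of uniquely placed reads they held 9.65% to 12.5% outside genes and 0.594% to 0.662% in several genes. Reads placed at several positions are not in the gene counts.

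Genes were kept by filterByExpr (minimum count 10, 12522 genes), scaled by TMM and tested with edgeR 4.0.16 in R 4.3.3 by a quasi-likelihood model with genotype as its term, 2-sided, with Benjamini-Hochberg adjustment over all tested genes and a threshold of 0.05. SE comes from the F statistic. Log2 CPM used a prior count of 2. DESeq2 1.42.0, limma-voom (limma 3.58.1) and other alternatives were run, and the test was checked on simulated data. The members and lists were chosen with earlier results of these data known. All 9 members are named, and in each other list the genes past the threshold, otherwise the 2 with the lowest p; other genes are marked as picked with values in view. One gene of the lists is not reported here and was left out of its list. Symbols, neighbours, overlaps and promoters come from RefSeq GRCm38.p6, exon lengths from GENCODE M21, both of another build than the notes name. Replicates differed by more than sampling noise, and same-numbered samples did not deviate together over all tested genes.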

Additional observations from a re-analysis of the deposited data

How the results depend on the processing

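Over 150 refits of single members, 147 kept their direction and their side of the threshold. Clock and Npas2 passed with DESeq2, the 2 members it called in place of 0, and the log2 fold change of Cry1 was -0.24 without knock-out replicate 3 and up to 0.40 with another library left out. The count of members called was 0 in every edgeR and limma-voom setting, with each library left out and with DESeq2 without wild type replicate 1, a setting chosen after seeing the data. Npas2 could not be tested with at least 1 CPM required in 3 libraries, after thinning, or with DESeq2 without wild type replicate 1. The 27 genes called over all genes became 133 with no filter, 435 with DESeq2, 175 with DESeq2 without wild type replicate 1, 68 with robust estimation and 1 at a threshold of 0.01. With 1 library left out they ranged from 3 to 36: 5 and 4 without wild type replicates 1 and 2, and 3 and 13 without knock-out replicates 2 and 3. The cause was not tested. Over all tested genes, deviations of same-numbered livers did not go together, with correlations of -0.08, -0.10 and -0.04. With the number as a replicate block 1 gene was called and 0 members, with Per3 at a log2 fold change of 2.08 (edgeR adjusted p = 0.0539). The block lowered the SE of Per3 to 0.188 from 0.524 and that of Per2 to 0.105 from 0.354. For Npas2 it fell to 0.438 from 0.944 and for Clock to 0.088 from 0.152. The SE of Arntl and Rora fell too, and that of Per1, Cry1 and Cry2 rose. Whether the numbers pair the samples in these members was not tested. Scaling moved the median log2 fold change of all genes by under 0.1. With 2 to 13 Npas2 counts in 5 libraries, depth limits that gene most, and intervals cover counting error only, since PCR copies of 1 molecule cannot be recognised.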
